A study of Homo sapiens with 6 samples.

Results

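The genes described are RELB and 9 other genes of the NF-kappaB pathway. Of these, RELA, REL, NFKB1 and NFKB2 are subunit genes, and NFKBIA, NFKBIE and TNFAIP3 are inhibitor genes. BCL3 encodes a nuclear IkappaB relative, and BIRC3 is a target gene. The genes described are 10 of 52992 genes to which transcript values could be summed. All 10 were among the 18514 genes with enough counts to be tested. The list was selected on earlier results of these libraries, in which RELB was low in 1 of the ARID1A groups. The differences of these 10 genes between groups are therefore given as a description with standard errors. Counts of calls among them stand only beside the share or the number called over all genes.

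RNA was sequenced from NB4, an established acute promyelocytic leukemia cell line with the PML-RARA fusion. All cells expressed Cas9 and carried a lentiviral small guide RNA (sgRNA) vector that doxycycline switches on, and all received 1 µg/ml doxycycline over 7 days, followed, per the methods of the study, by culture without it. The 3 groups had 2 replicates each: LacZ, labelled wild type, with an sgRNA against a bacterial gene, and sg1 and sg5, labelled ARID1A-deficient, with different sgRNAs against ARID1A. ARID1A encodes a DNA-binding component of SWI/SNF, an enzyme complex that moves nucleosomes. The cells were sorted pools carrying both fluorescent vector reporters, and the share of cells or alleles edited in each pool is not given in the sources used here. Nothing states that replicates came from separate cultures, so standard errors and p-values measure only the spread between these libraries.

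NF-kappaB transcription factors are pairs drawn from 5 related proteins, RELA, RELB, c-REL, p50 and p52. The p50 and p52 subunits are cut from the longer NFKB1 and NFKB2 products, p105 and p100. In the canonical pathway, receptors for TNF, IL-1 and microbial products activate the IKK complex, IkappaB proteins such as those of NFKBIA and NFKBIE are degraded, and RELA or c-REL with p50 enters the nucleus. In the non-canonical pathway, receptors such as LTBR stabilise the kinase NIK, p100 is processed to p52, and the p52 partner RELB is released. Several of the 10 genes, including NFKBIA, NFKB2, RELB, TNFAIP3 and BIRC3, are themselves textbook targets of NF-kappaB, and the products of NFKBIA and TNFAIP3 close negative feedback loops. Much of this regulation is by protein degradation, processing and location, which RNA levels do not show.

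Total estimated counts, in which reads shared by transcripts are divided between them, lay between 46131178 and 54843745 per library. The first principal component of log2 CPM held 34.4% of the variance. On it, sg1 replicate 1 and sg5 replicate 2 stood apart at 34.3 and 46.8, against -30.3 to -11.3 in the other 4 libraries. Fold changes of the 10 genes against LacZ are therefore given below also without both libraries that stood apart. On the second component, with 19.1% of the variance, sg5 replicate 1 lay at -42.9, against -9.9 to 26.3 in the others. The sg5 values without both libraries thus rest on sg5 replicate 1 alone, itself extreme on the second component. ARID1A RNA measured 155 and 191 CPM (counts scaled to library size) in LacZ, 211 and 191 CPM in sg1, and 124 and 145 CPM in sg5. Its log2 fold change against LacZ was 0.22 (SE 0.14, edgeR adjusted p = 0.993) in sg1 and -0.36 (SE 0.14, adjusted p = 0.661) in sg5. RNA of the targeted gene thus did not check the labels. For the protein, the study reports an immunoblot with doxycycline-induced knockout of ARID1A in such NB4 cells. The promyelocyte markers as a list of 8 genes summed to 6955 to 9201 TPM (abundance corrected for transcript length) per library, led by MPO, although ELANE was listed at 0.29 TPM at most. The 5 erythroid markers summed to 0.68 to 1.94 TPM with HBB and HBA1 at 0, and the 6 monocyte and macrophage markers to 12.4 to 18.2 TPM with FCGR3A at 0. B lymphocyte markers summed to 34.4 to 52.9 TPM, nearly all from CD79A and CD79B with MS4A1 at 0.13 TPM at most, and T lymphocyte markers to 12.4 to 19.5 TPM, nearly all from CD3D. The promyelocyte, erythroid and monocyte sums were lower in all 4 ARID1A-deficient libraries than in both LacZ libraries, and the lymphocyte sums were higher. The promyelocyte sum was nearly equal in sg1 replicate 1 and LacZ replicate 1, at 8228 and 8308 TPM. In CPM, MPO overlapped between sg1 and LacZ, at 15410 and 14820 in these libraries. Of all genes tested, 17.4% in sg1 and 21.9% in sg5 lay below LacZ without overlap, and 16.7% and 20.2% above. Most of the erythroid sum was GATA1, and most of the monocyte sum was CSF1R. Not every gene followed the sum of its list. PRTN3 measured 852 TPM in sg1 replicate 1, against 684 and 731 TPM in LacZ. KLF1 measured 0.26 TPM in sg5 replicate 1, against 0.10 TPM in each LacZ library. The part of these sums in the results was not tested.

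DNA elements bound by NF-kappaB were searched in RefSeq promoter windows (GRCh38.p14) of 250 bases before to 50 after a start site. The kappaB decamer consensus used was GGRRNNYYCC, where R is A or G, Y is C or T and N is any base. It reads the same on both strands, and the shares of matches below hold for this pattern only. Of the 10 genes, 8 had at least 1 window, with 12 windows in all, and RELB and NFKBIE had none in the table. A match lay in 8 of these 12 windows and for 7 of the 8 genes. Among all 35116 windows 14.0% held a match, as did those of 20.1% of 11411 tested genes. TGANTCA, the AP-1 element, was found for 0 of the 8 genes (7.41% of tested genes) and GGGCGG, the GC box, for 7 of 8 (73.0%). The matched stretches before the start are printed below in lower case, with kappaB matches in capitals, because they belong to genes that differed in the libraries as well as to genes that did not. Where a match falls in an exon of any GENCODE 29 transcript, 30 bases are shown. This may be a transcript of the same gene, since REL, NFKB2 and TNFAIP3 begin in GENCODE 29 before their printed matches.
REL, chr2:60881518-60881547, plus strand: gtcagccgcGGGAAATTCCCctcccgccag
NFKB1, chr4:102501300-102501329, plus strand: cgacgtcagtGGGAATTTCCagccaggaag
NFKB2, chr10:102394462-102394491, plus strand: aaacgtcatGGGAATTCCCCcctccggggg
TNFAIP3, chr6:137867188-137867217, plus strand: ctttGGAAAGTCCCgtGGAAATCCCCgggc
NFKBIA, chr14:35404781-35404870, minus strand: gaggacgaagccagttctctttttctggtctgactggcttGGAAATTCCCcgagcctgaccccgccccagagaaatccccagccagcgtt
BIRC3, chr11:102317245-102317398, plus strand: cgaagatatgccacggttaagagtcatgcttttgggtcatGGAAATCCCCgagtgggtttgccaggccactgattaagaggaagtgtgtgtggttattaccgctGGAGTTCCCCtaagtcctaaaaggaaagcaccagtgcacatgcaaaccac

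In REL and NFKB2 the capitals cover a pair of matches that overlap by all but 1 base. Counted from the start site, the printed matches began at base -47 in REL, -49 in NFKB1, -107 in NFKB2, -67 and -55 in TNFAIP3, -81 in NFKBIA, and -199 and -135 in BIRC3. NFKB2 held further matches, 1 nearer the same start and 2 before another start. In BCL3 the match lay after the start, and RELA had none in its 2 windows. Matching letters were thus present in TNFAIP3 and NFKB2, which were lower in sg5, and also in REL, NFKB1 and NFKBIA, which were not or hardly so. A match of letters is a description of the window and not a bound site.

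Across the 10 genes, sg5 was lower than LacZ for RELB above all, and by smaller amounts for TNFAIP3, BCL3, NFKB2 and NFKBIE. RELA, NFKB1 and NFKBIA were nearly equal in the 3 groups. Both replicates of sg5 lay below both replicates of LacZ for 6 of 10 genes, as for 21.9% of all genes tested, and above for REL only (20.2%). For sg1 the replicates lay below LacZ for 3 of 10 genes (17.4% of all genes tested), namely RELB, NFKB2 and NFKBIE. Between the ARID1A groups, sg5 lay below sg1 for RELB, NFKBIE and TNFAIP3, again 3 of 10 (11.7% of all genes tested). These counts follow from how the genes were selected and support nothing beyond the values.

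**Figure D1:**
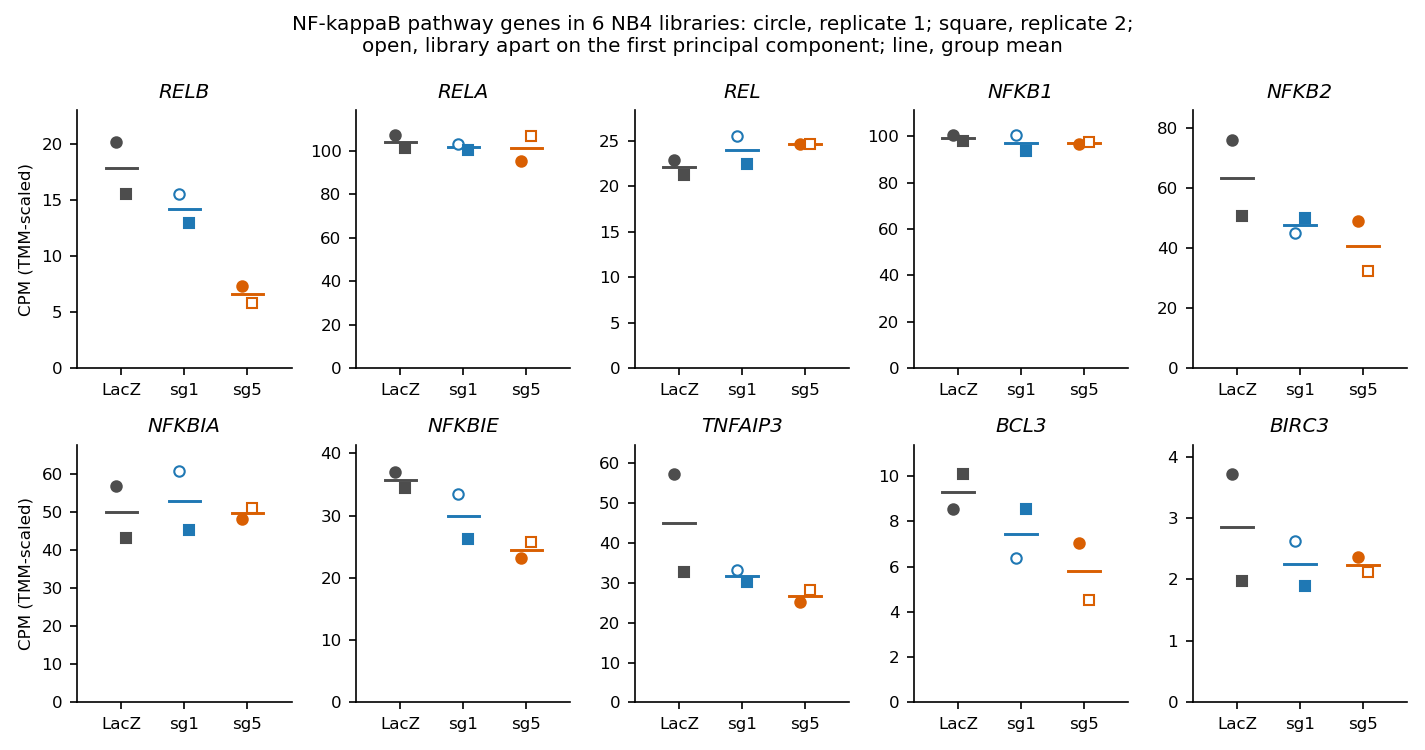
Each panel plots 1 gene, with TMM-scaled CPM on a y axis from 0 and the groups LacZ, sg1 and sg5 on the x axis. Circles are replicate 1, squares replicate 2, open symbols the libraries that stood apart, and lines group means. The sg5 points of RELB, at 7.35 and 5.84 CPM, lie well below its LacZ points at 20.2 and 15.6, whereas points of RELA, NFKB1 and NFKBIA lie at about the same height in the 3 groups.

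The median log2 fold change of the 10 genes against LacZ was -0.29 in sg1 and -0.45 in sg5, beside 0.002 and -0.01 over all genes tested. Both contrasts share the LacZ libraries, so that their values are not independent of each other. The sign was negative for 8 of 10 genes in sg1 and for 9 of 10 in sg5. Per library, the median of the 10 genes relative to the LacZ mean on the log2 CPM scale was 0.12 and -0.12 for LacZ, -0.069 and -0.22 for sg1, and -0.27 and -0.41 for sg5. At a false discovery rate (FDR) of 0.1 by edgeR over all genes, 0 of the 10 were called in sg1 (0.0378% of all genes tested), 1 in sg5, which was RELB (0.0972%), and 0 between sg5 and sg1 (0.0054%). With unadjusted p-values under 0.05 there were 0, 5 and 1 (4.15%, 7.47% and 1.38% of all genes tested), and DESeq2 called 0, 1 and 1 (0.627%, 1.09% and 0.027%). Nothing is read from these calls, since the same contrasts had chosen the list.

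RELB (ENSG00000104856) encodes the subunit that pairs mainly with p52 in the non-canonical pathway, and occupies bases 45001430 to 45038198 of chromosome 19, plus strand (GRCh38, GENCODE 29). Its level was 20.2 and 15.6 CPM in LacZ, 15.5 and 12.9 CPM in sg1, and 7.35 and 5.84 CPM in sg5. The 3 groups did not overlap, although the higher sg1 library nearly reached the lower LacZ library. Against LacZ, sg5 held 36.8% of the mean CPM (log2 fold change -1.44, SE 0.20) and sg1 held 79.5% (log2 fold change -0.33, SE 0.20). The difference between sg5 and sg1 was -1.11 (SE 0.20) on the log2 scale. Of all genes tested, 1.14% had a lower log2 fold change than RELB in sg5 and 14.8% in sg1. In bulk RNA, fewer cells with a transcript and less transcript per cell cannot be told apart.

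Over 18 alternatives of the processing, the RELB log2 fold change ranged from -1.61 to -1.23 in sg5 and from -0.51 to -0.13 in sg1. Without both libraries that stood apart, it was -1.29 in sg5 and -0.47 in sg1, and -0.82 between them. The lowest size in both contrasts came without LacZ replicate 1, the higher of the LacZ libraries.

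The RELB estimate came almost wholly from a pair of transcripts. RELB-201 was estimated at 14.2 and 12.7 CPM in LacZ, 13.2 and 10 CPM in sg1, and 3.77 and 3.49 CPM in sg5. RELB-202 was estimated at 5.73 and 2.6 CPM in LacZ, 2.11 and 2.77 CPM in sg1, and 3.40 and 2.05 CPM in sg5. Thus RELB-201 was low in both sg5 libraries only, whereas RELB-202 overlapped between the groups. The share of RELB counts on RELB-201 was 70.0% and 81.6% for LacZ, 85.0% and 77.3% for sg1, and 51.3% and 59.9% for sg5. This split is uncertain, because only 4.55% of the 31-base words of RELB-201 are absent from RELB-202, and 1.28% the other way round.

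**Figure D2:**
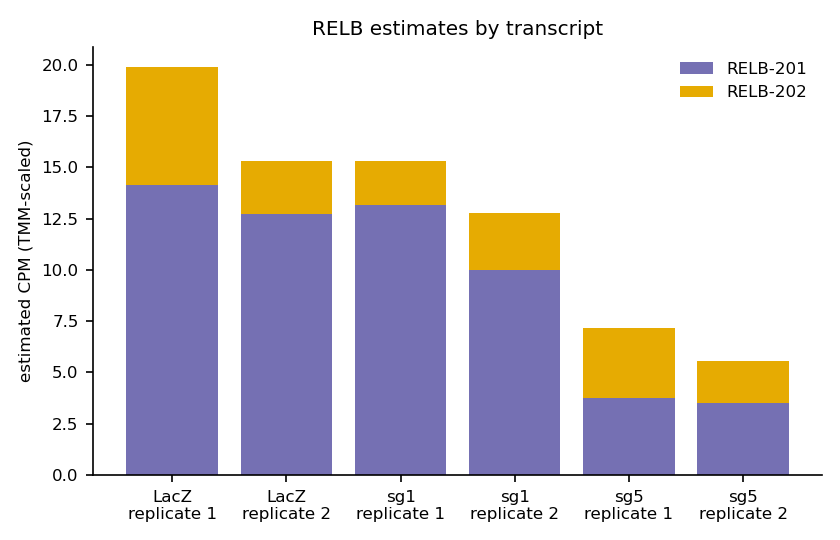
Stacked bars give the estimated TMM-scaled CPM of RELB-201 (purple) and RELB-202 (yellow) in each of the 6 libraries on an axis from 0. The purple part is 3.77 and 3.49 CPM in the sg5 libraries and at least 10 CPM in the others, while the yellow part lies between 2.05 and 5.73 CPM in all 6.

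NFKB2 (ENSG00000077150, chromosome 10 from 102394110 to 102402529, plus strand) encodes p100, which both holds RELB in the cytoplasm and is the precursor of its partner p52. Its level was 76.0 and 50.9 CPM in LacZ, 45.1 and 50.1 CPM in sg1, and 49.2 and 32.5 CPM in sg5. All ARID1A-deficient libraries lay below both LacZ libraries, but the higher library of each group came close to the lower LacZ value. The log2 fold change was -0.64 (SE 0.23) in sg5 and -0.42 (SE 0.23) in sg1. Without both libraries that stood apart it was -0.37 and -0.34, and without LacZ replicate 1 it was -0.31 and -0.096. The drop in sg5 was thus carried in part by sg5 replicate 2 and by the high LacZ replicate 1.

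The genes of the canonical subunits differed little. RELA (ENSG00000173039, chromosome 11 from 65653596 to 65663094, minus strand), whose product carries the main activating domain of the canonical dimer, measured 107 and 101 CPM in LacZ, 103 and 100.3 CPM in sg1, and 95.6 and 107 CPM in sg5. Its log2 fold change was -0.034 in sg1 and -0.042 in sg5 (SE 0.11 each), and -0.056 and -0.13 without both libraries that stood apart. The groups overlapped in every comparison.

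NFKB1 (ENSG00000109320, chromosome 4 from 102501329 to 102617302, plus strand), the gene of p105 and p50, measured 100.7 and 98.0 CPM in LacZ, 100.3 and 93.8 CPM in sg1, and 96.4 and 97.5 CPM in sg5. Both sg5 libraries lay just below LacZ, and the log2 fold change was -0.035 (SE 0.11), beside -0.034 in sg1. These were -0.044 and -0.082 without both libraries that stood apart. The 3 main NFKB1 transcripts traded counts between libraries of the same group, with NFKB1-205 at 18.2 and 4.64 CPM in LacZ and 35.4 and 9.80 CPM in sg1, so that no isoform value is read for this gene.

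REL (ENSG00000162924, chromosome 2 from 60881521 to 60931610, plus strand), the gene of c-REL, was the only gene of the 10 with both sg5 libraries above LacZ. Its level was 22.9 and 21.3 CPM in LacZ, 25.6 and 22.5 CPM in sg1, and 24.6 and 24.7 CPM in sg5, and the log2 fold changes were 0.12 (sg1) and 0.16 (sg5), with an SE of 0.13 each. They were 0.024 and 0.16 without both libraries that stood apart. On the TPM scale the sign turned, to -0.18 in sg1 and -0.021 in sg5. REL also overlaps another gene on the same strand, AC010733.2, to which the authors' quantification gave 12.3 and 9.66 CPM in LacZ, 6.49 and 8.78 CPM in sg1, and 7.05 and 9.64 CPM in sg5. Summed, both genes held a mean of 33.1 CPM for LacZ, 31.6 CPM for sg1 and 33.0 CPM for sg5. Whether reads of REL were assigned to AC010733.2 was not tested.

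Among the inhibitors, NFKBIE and NFKBIA behaved differently. NFKBIE (ENSG00000146232, chromosome 6 from 44258166 to 44265788, minus strand) encodes IkappaB epsilon, which retains dimers in the cytoplasm. It measured 37.0 and 34.5 CPM in LacZ, 33.5 and 26.3 CPM in sg1, and 23.3 and 25.8 CPM in sg5. The 3 groups were ordered without overlap, and replicates of LacZ and of sg5 were close to each other. The log2 fold change was -0.54 (SE 0.15) in sg5 and -0.26 (SE 0.15) in sg1, and without both libraries that stood apart it was -0.62 and -0.44. Its range over the 18 alternatives was -0.72 to -0.45 in sg5.

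NFKBIA (ENSG00000100906, chromosome 14 from 35401511 to 35404749, minus strand) encodes IkappaB alpha, the fast feedback inhibitor of RELA dimers. It measured 56.7 and 43.1 CPM in LacZ, 60.7 and 45.3 CPM in sg1, and 48.2 and 51.1 CPM in sg5. The groups overlapped throughout, and the log2 fold changes were 0.086 in sg1 and -0.007 in sg5 (SE 0.18 each). Without both libraries that stood apart they were -0.14 and -0.05, so that the sign turned in sg1. Replicates of LacZ and of sg1 differed by more than any of the group means did.

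TNFAIP3 (ENSG00000118503, chromosome 6 from 137867188 to 137883312, plus strand) encodes A20, a ubiquitin-editing enzyme that shuts off signaling to IKK. It measured 57.2 and 32.9 CPM in LacZ, 33.3 and 30.2 CPM in sg1, and 25.3 and 28.1 CPM in sg5. LacZ replicate 1 stood far above the other 5 libraries. The log2 fold change was -0.76 (SE 0.23) in sg5 and -0.51 (SE 0.23) in sg1, and without LacZ replicate 1 these were -0.29 and -0.05. With LacZ replicate 1 as the only control they were -1.09 and -0.85, and without both libraries that stood apart -0.84 and -0.58. Most of the TNFAIP3 difference thus rested on that library, although both sg5 libraries lay below every other library.

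BCL3 (ENSG00000069399, chromosome 19 from 44747705 to 44760044, plus strand) encodes a nuclear IkappaB relative that binds p50 and p52 on DNA. It measured 8.52 and 10.1 CPM in LacZ, 6.37 and 8.53 CPM in sg1, and 7.03 and 4.53 CPM in sg5. The sg5 libraries lay below LacZ, while sg1 overlapped LacZ narrowly, at 8.53 against 8.52 CPM. The log2 fold change was -0.69 (SE 0.26) in sg5 and -0.32 (SE 0.25) in sg1, and without both libraries that stood apart it was -0.40 and -0.12. BCL3 starts at -254 kb from the start of RELB, on the same strand.

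The target gene BIRC3 (ENSG00000023445, chromosome 11 from 102317450 to 102339403, plus strand) encodes cIAP2, a ubiquitin ligase that binds TRAF2. It was the lowest of the 10, at 3.72 and 1.98 CPM in LacZ, 2.63 and 1.89 CPM in sg1, and 2.37 and 2.12 CPM in sg5. All groups overlapped, and the log2 fold changes of -0.33 in sg1 and -0.35 in sg5 (SE 0.34 each) were about as large as their error. Without both libraries that stood apart they were -0.59 and -0.27, and without LacZ replicate 1 the sg5 value was 0.19.

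**Figure D3:**
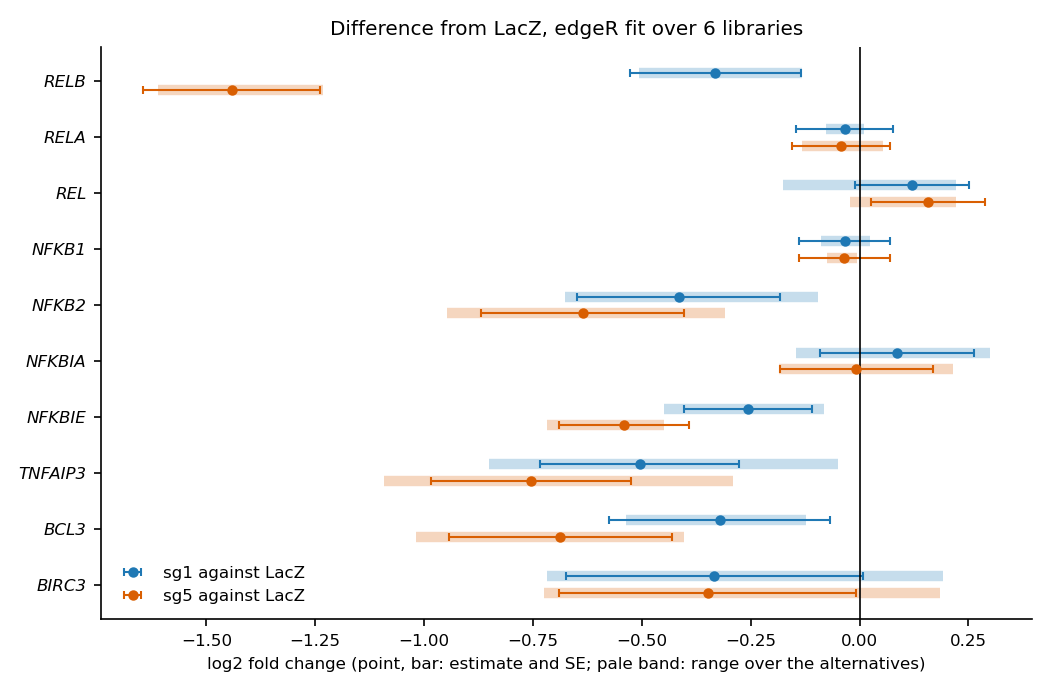
Points and bars give the edgeR log2 fold change against LacZ and its standard error for each of the 10 genes, in blue for sg1 and orange for sg5, on a log2 axis, and pale bands give the range over the processing alternatives. The sg5 band of RELB, from -1.61 to -1.23, lies apart from all other bands, and bands of RELA, REL, NFKB1, NFKBIA and BIRC3 reach both sides of 0 in sg1, sg5 or both.

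Levels of the 10 genes can be ordered in TPM, which allows for transcript length. In LacZ the mean ± SD (n = 2) was 59.9 ± 1.57 TPM for RELA, 53.5 ± 8.77 for NFKBIA, 40.9 ± 10.2 for NFKB2, 35.0 ± 1.48 for NFKB1, 26.6 ± 9.47 for TNFAIP3 and 21.5 ± 0.47 for NFKBIE. It was 11.2 ± 2.26 TPM for RELB, 7.88 ± 0.45 for BCL3, 3.75 ± 0.037 for REL and 0.92 ± 0.58 for BIRC3. Replicates overlapped between neighbours from RELA through NFKBIA and NFKB2 to NFKB1, and between TNFAIP3 and NFKBIE, but not between the other neighbours. RELB was thus the lowest of the subunit genes but REL in LacZ. In sg5 its TPM was 4.72 and 3.83, which overlapped BCL3 at 5.91 and 3.65 and came close to REL at 3.66 and 3.73.

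LacZ replicate 1 exceeded replicate 2 for 9 of the 10 genes, where 51.0% of all genes did so. The difference on the log2 scale was 0.89 for BIRC3, 0.80 for TNFAIP3, 0.58 for NFKB2, 0.40 for NFKBIA and 0.37 for RELB, and at most 0.24 in size for the other 5. Only 5.78% and 7.17% of all genes had a larger difference between LacZ replicates than BIRC3 and TNFAIP3. In sg1, replicate 1 was the higher for 8 of 10 genes (47.6% of all genes), and in sg5 for 4 of 10 (51.4%). The difference between LacZ replicates was larger than the sg5 log2 fold change for TNFAIP3, BIRC3, NFKBIA, RELA and NFKB1, and smaller for RELB, NFKB2, NFKBIE, BCL3 and REL. The median log2 fold change of the 10 genes without LacZ replicate 1 was -0.032 in sg1 and -0.15 in sg5.

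To place the 10 genes in the wider pathway, a list of 93 other NF-kappaB genes by role was examined, of which 89 were found and 72 had enough counts to be tested. None of the 72 was called by edgeR at an FDR of 0.1 in sg1, in sg5 or between them. Over all genes tested, 0.0378%, 0.0972% and 0.0054% were called, so that 0 of 72 says little about the list. At an unadjusted p under 0.05 there were 2 higher and 3 lower in sg1, 1 higher and 3 lower in sg5, and 1 lower in sg5 against sg1, where 4.15%, 7.47% and 1.38% of all genes tested passed in either direction. The median log2 fold change was 0.020 in sg1 and 0.009 in sg5, close to that of all genes. In sg5, 16 of 72 lay above and 16 below LacZ without overlap (20.2% and 21.9% of all genes tested), in sg1 13 and 15 (16.7% and 17.4%), and between sg5 and sg1 10 and 16 (10% and 11.7%). DESeq2 likewise called 0 of them in each comparison (0.627%, 1.09% and 0.027% of all genes tested). Without a low-count filter, edgeR called 2 in sg1 and 4 in sg5, beside 345 and 632 over all genes. Calls in the other alternatives are given further below.

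**Figure D4:**
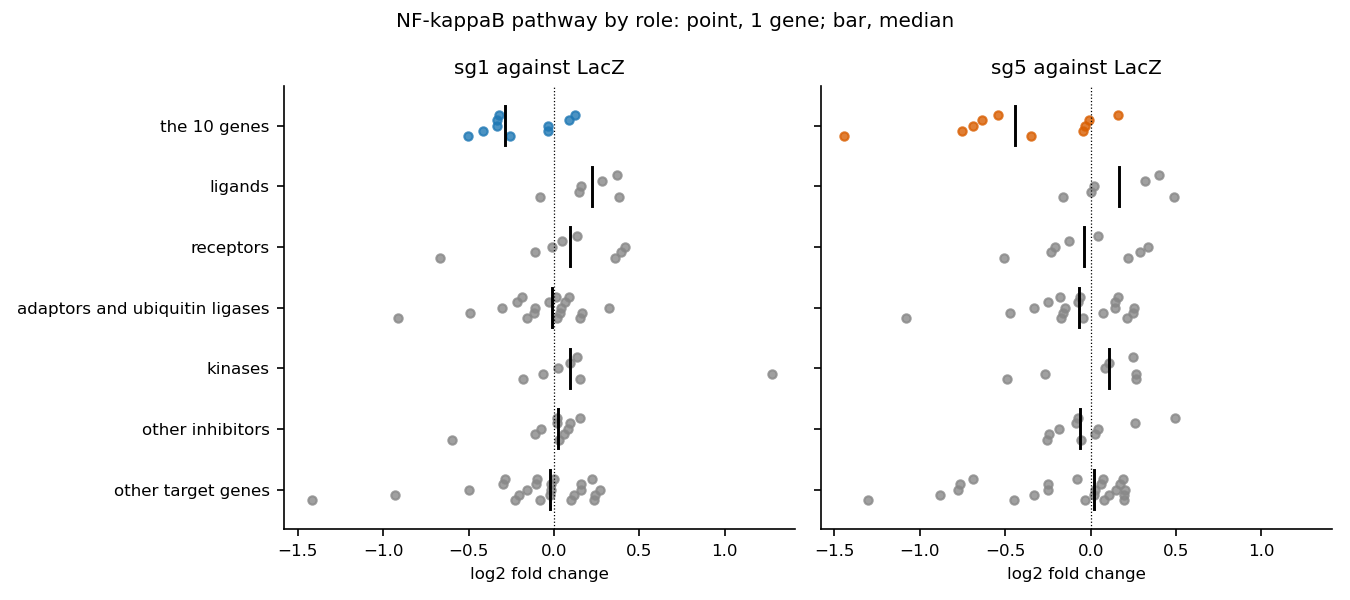
Each point is 1 tested gene, its log2 fold change against LacZ on the x axis (left, sg1, and right, sg5) and its role on the y axis, with vertical bars at role medians and points spread vertically only for legibility. The medians of the 6 other roles lie between -0.069 and 0.22, and that of the 10 genes at -0.29 and -0.45.

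Of 9 ligands, 6 were tested, and their median log2 fold change was 0.22 for sg1 and 0.17 for sg5. TNF, the most abundant at a mean of 34.35 TPM, measured 27.5 and 45.5 CPM in LacZ, 41.1 and 47.6 CPM in sg1, and 31.7 and 59.1 CPM in sg5 (log2 fold change 0.32, SE 0.34, edgeR adjusted p = 0.827 in sg5). Replicates of LacZ and of sg5 differed by more than any of the group means did, and without both libraries that stood apart the sg5 value was -0.20. TNFSF14 (LIGHT), a ligand of LTBR, had the largest difference in sg5, with 6.36 and 6.64 CPM in LacZ, 9.41 and 7.36 CPM in sg1, and 8.29 and 9.93 CPM in sg5 (0.49, SE 0.20, adjusted p = 0.663). All 4 ARID1A-deficient libraries lay above LacZ. TNFSF11 (RANKL), CD40LG and IL1A were too low to test.

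Of 13 receptors, 8 were tested. TNFRSF1A, the main TNF receptor, was the most abundant at 127.7 TPM and measured 181 and 197 CPM in LacZ, 188 and 186 CPM in sg1, and 171 and 175 CPM in sg5 (-0.13, SE 0.11, adjusted p = 0.779 in sg5). TNFRSF8 (CD30) had the largest log2 fold change in sg5, -0.51 (SE 0.51, adjusted p = 0.803), at no more than 0.34 CPM in any library. Among receptors that feed the non-canonical arm, CD40 and TNFRSF11A (RANK) were too low to test, while LTBR, named here after its values were seen, measured 74.4 and 79.4 CPM in LacZ, 73.0 and 69.6 CPM in sg1, and 67.1 and 64.1 CPM in sg5 (-0.23, SE 0.11, adjusted p = 0.681). TNFRSF13C, the BAFF receptor, was also named after its values were seen, overlapped between sg5 and LacZ and had a log2 fold change of -0.21 (SE 0.33, adjusted p = 0.886).

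All 18 adaptors and ubiquitin ligases were tested, and their median log2 fold change was -0.010 for sg1 and -0.069 for sg5. IRAK1, an adaptor kinase of the IL-1 and Toll-like receptors, was the most abundant at 255.6 TPM, and its log2 fold change was -0.073 (SE 0.12, adjusted p = 0.895) in sg5. TRAF1, a textbook NF-kappaB target, had the largest difference, with 6.06 and 3.09 CPM in LacZ, 1.92 and 2.95 CPM in sg1, and 2.62 and 1.70 CPM in sg5. Its log2 fold change was -1.08 (SE 0.39, adjusted p = 0.634) in sg5 and -0.91 (SE 0.38, adjusted p = 0.993) in sg1. LacZ replicate 1 was again the highest library. The others past an unadjusted p of 0.05, named after their values were seen, were MYD88 (0.32, SE 0.13) and TAB2 (-0.49, SE 0.20) in sg1 and RBCK1 (-0.47, SE 0.17, adjusted p = 0.629), a subunit of the linear ubiquitin ligase, in sg5.

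Among 7 tested kinases of 8, IKBKB, the catalytic IKK subunit of the canonical arm, was the most abundant at 79.07 TPM and had a log2 fold change of -0.27 (SE 0.17, adjusted p = 0.714) in sg5. IKBKG, the regulatory IKK subunit, had the largest, -0.49 (SE 0.27, adjusted p = 0.702), and its reads are uncertain because a near-identical copy of part of the gene exists in the genome. MAP3K14, the gene of NIK, was named after its values were seen. It measured 1.12 and 1.29 CPM in LacZ, 3.01 and 2.84 CPM in sg1, and 2.09 and 0.81 CPM in sg5, with a log2 fold change of 1.28 (SE 0.41, adjusted p = 0.869) in sg1, 0.26 (SE 0.42, adjusted p = 0.886) in sg5, and -1.01 (SE 0.41, adjusted p = 1) between them. Both sg1 libraries lay above the other 4.

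Of 11 other inhibitors 10 were tested, with medians of 0.026 in sg1 and -0.065 in sg5. TNIP2, an A20-binding protein, was the most abundant at 56.65 TPM (log2 fold change -0.084, SE 0.12, adjusted p = 0.87 in sg5). ZFP36, a protein that destabilises cytokine mRNA, had the largest value, 0.49 (SE 0.69, adjusted p = 0.873), with replicates of 3.53 and 0.89 CPM in LacZ. NFKBIB, NFKBID and NFKBIZ, the other IkappaB relatives, overlapped between sg5 and LacZ.

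Of 34 other target genes 31 were found and 23 tested, 11 lower and 12 higher in sg5. PLEK, the most abundant at 170.3 TPM, had a log2 fold change of -0.078 (SE 0.18, adjusted p = 0.927). CXCL10, a chemokine induced also by interferon, had the largest difference, -1.30 (SE 0.64, adjusted p = 0.685), at 1.5 and 0.50 CPM in LacZ and 0.60 and 0.22 CPM in sg5. SOD2, CFLAR, BCL2L1, CD83 and CXCL8, also named after their values were seen, each had a log2 fold change between -0.25 and 0.20 in sg5, although that of CXCL8 was -0.62 without both libraries that stood apart. Of 4 targets named after their values were seen, ICAM1 measured 116 and 81.6 CPM in LacZ, 73.5 and 66.1 CPM in sg1, and 78.4 and 37.7 CPM in sg5 (-0.77, SE 0.35, adjusted p = 0.685), EBI3 had -0.69 (SE 0.32, adjusted p = 0.681), JUNB -0.33 (SE 0.14, adjusted p = 0.663) and IER3 -0.88 (SE 0.49, adjusted p = 0.702) in sg5. In each of these 4 the sg5 libraries lay below LacZ, and they were chosen for this. Of the 23 tested targets, 5 lay below LacZ and 5 above without overlap in sg5, near the shares of all genes tested (21.9% and 20.2%). Those above were CFLAR, IRF1, XIAP, TNFAIP8 and PLAU. ICAM1 had -0.33, IER3 -0.44, EBI3 -0.41 and CXCL10 -0.74 without both libraries that stood apart. IL6, PTGS2, CXCL1, CXCL12, CCL19 and CCL21 were listed at 0 in all 6 libraries.

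Likeness to RELB was described by Pearson's r of log2 CPM over the 6 libraries, for the 13133 genes that averaged 50 counts or more. The 6 points fall in 3 groups and share the group differences, so that r is a description only and carries no p-value. The median r was -0.035, and 66 genes exceeded 0.9. The 5 highest were CPXM1 (0.991), IL32 (0.988), MYOM2 (0.984), ZNF283 (0.978) and CSF2RB (0.977), and their log2 fold changes in sg5 were -0.20, -1.13, -0.53, -0.46 and -0.21. IL32 was the only gene of these 5 with a difference near that of RELB, with mean levels of 5.67 CPM for LacZ, 4.27 CPM for sg1 and 2.59 CPM for sg5. Within the 10 genes, r was 0.865 for NFKBIE, 0.780 for NFKB2, 0.766 for TNFAIP3, 0.736 for BCL3, 0.468 for BIRC3, 0.449 for NFKB1, 0.234 for RELA, 0.227 for NFKBIA and -0.468 for REL. NFKBIE, the nearest of them, was exceeded by 1.15% of genes. These values depend on the libraries used. Over the 4 libraries without those that stood apart, r was 0.956 for RELA and 0.932 for NFKBIE, and lay between 0.336 and 0.865 for the other genes but REL, at -0.70.

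The neighbourhood of RELB on chromosome 19 was also described. Within 500 kb on either side 32 other genes were tested, among them BCL3 of the 10 genes, at -0.69 in sg5. The median log2 fold change of the 32 genes was -0.25 in sg5 and -0.097 in sg1, beside -0.01 and 0.002 over all genes tested. Of the 32 genes, 23 and 20 were negative. In sg5 they ranged from -0.97 to 0.68, so that none was as low as RELB, at -1.44.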

How the data were processed

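Per the labels, total RNA of 6 NB4 libraries was prepared with a TruSeq kit. Transcripts were quantified by the authors from paired-end reads, and the submitters' processing notes name kallisto, DESeq2 and hg19. The human transcript set is not given in the sources used here. The deposited values are estimated counts, in which the authors' quantification divides reads shared by transcripts, and deposited TPM, scaled by effective transcript length. Of 196354 transcripts, 181857 (92.6%) matched GENCODE 29 by identifier and carried 95.4% to 95.5% of counts. They were summed to 52992 genes and rounded. Unmatched transcripts were left out, among them those of IKBKE, CCL3, CCL4 and CCL5, not analysed here. Gene coordinates are from GENCODE 29 (GRCh38) and promoters from RefSeq (GRCh38.p14), not from the authors' build. Whether counting used strand is not given.

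The 3 groups were fitted together with edgeR 4.0.16 in R 4.3.3 (TMM normalization, filterByExpr at 10 counts, robust quasi-likelihood F-test, group as the only term). P-values were adjusted by Benjamini-Hochberg over 18514 genes and called at an FDR of 0.1, the threshold of the study. Standard errors were derived from the F statistic. CPM are TMM-scaled, and log2 CPM used a prior count of 2. The common biological coefficient of variation was 16.6%. The fit was also run on counts simulated from its own estimates, which cannot show that it suits these libraries. Figures used Python 3.11.15.

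The 10 genes and all gene lists were chosen with earlier results of these data known. Genes named are the 10, ARID1A, pathway genes called in any contrast, in each role the gene with the highest mean TPM and that with the largest log2 fold change in sg5, and the 5 genes most correlated with RELB among those averaging 50 counts or more. Others are marked as named after their values were seen, except markers, gene lists given by name only and genes called in an alternative. Alternatives were DESeq2 1.42.0 (the test of the study), RLE size factors, no filter, a mean of at least 50 counts, a length offset, no robust estimation, only the groups compared, TPM (pseudocount 0.1), a replicate block, leaving out libraries and an FDR of 0.05. A crossed block was added after seeing the data.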

Additional observations from a re-analysis of the deposited data

How the results depend on the processing

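Each trio of counts below refers to sg1 and sg5 against LacZ and then to sg5 against sg1. Called genes numbered 7, 18 and 1 over all genes, 0, 1 and 0 for the 10 genes (RELB in sg5) and 0, 0 and 0 for the pathway list. Over all genes DESeq2 called 116, 201 and 5, a fit without a low-count filter 345, 632 and 86, a mean of at least 50 counts 4, 15 and 0, a transcript length offset 9, 15 and 2, and only the groups compared 18, 29 and 0. At an FDR of 0.05 they were 5, 12 and 0. The 3 zeros between sg5 and sg1 stood beside 113, 166 and 256 genes at an unadjusted p under 0.05. Among the 10 genes, DESeq2 also called RELB between sg5 and sg1 (1 gene). Without the filter, 1 (TNFAIP3), 4 (RELB, NFKB2, NFKBIE and TNFAIP3) and 1 (RELB) were called, beside 345, 632 and 86 over all genes. Of the pathway list, that fit called 2 (MAP3K14, ICAM1) in sg1 and 4 (TRAF1, RBCK1, ICAM1, CXCL10) in sg5. The RELB call in sg5 was lost (0 of 10 called) with a mean of at least 50 counts, the length offset, no robust estimation, the replicate block with or without length offset, and an FDR of 0.05, and without LacZ replicate 1, LacZ replicate 2 or sg5 replicate 2. The cause was not tested.

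Whether libraries with the same replicate number were paired is not given in the sources used here. Deviations from group means were correlated between same-numbered libraries over 18514 genes. The values were 0.072 for LacZ and sg1, 0.012 for LacZ and sg5, and -0.206 for sg1 and sg5. With 2 replicates per group, such values cannot settle whether the numbers pair libraries. With the number as a replicate block, with or without the length offset, 1, 1 and 0 genes were called. A crossed block, chosen after seeing the data, gave 59, 157 and 2. The median log2 fold change of the 10 genes between sg5 and sg1, -0.157, was -0.288 with the length offset and -0.308 with block and offset.

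Without both libraries that stood apart, where the lone sg1 and sg5 libraries are assumed to vary like LacZ, 424, 787 and 215 genes were called. They included 1 (NFKBIE), 2 (RELB and NFKBIE) and 1 (RELB) of the 10 genes. Of the pathway list they included 5 in sg1 (TLR6, TRAF3, MAP3K14, ICAM1, IER3), 4 in sg5 (TLR1, TLR6, NFKBID, CXCL8) and 1 between them (NFKBID). Leaving out each replicate in turn gave 1 to 33 genes in sg1, 0 to 78 in sg5 and 0 to 8 between them. In sg5 it gave 0 to 1 of the 10 genes, and 0 to 1 of the pathway list (ICAM1, without sg5 replicate 1). The median of the 10 genes ranged from -0.291 to -0.032 in sg1, -0.57 to -0.147 in sg5 and -0.185 to -0.024 between them. The values nearest 0 came without LacZ replicate 1 against LacZ, and without sg1 replicate 1 between sg5 and sg1.

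Of 180 fold changes of the 10 genes per comparison, 163 in sg1, 169 in sg5 and 163 between sg5 and sg1 moved by less than the spread between replicates, and 12, 12 and 27 changed sign. The sign was kept in all 18 alternatives in sg5 for RELB, NFKB2, NFKBIE, TNFAIP3, BCL3 and NFKB1. Groups of 2 replicates, and 100 to 196 counts of BIRC3 in the LacZ libraries, limit what can be told apart.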
